A study of Penicillium oxalicum with 6 samples.

Results

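The 10 genes described here were grouped as the cellobiohydrolase and endoglucanase genes of the filamentous fungus Penicillium oxalicum, which lives on plant remains and exports enzymes that digest them. They were picked by identifier, with earlier results of these data known. All 10 were found among the 9284 genes listed in at least 1 of 6 RNA sequencing libraries. Of these, 2 genes, POX04786 and POX05587, are listed as cellobiohydrolases and 8 as endoglucanases. The deposited tables carry no gene names, and none of their identifiers matched the RefSeq table, so the classes are recalled from published work on this fungus and could not be checked, with those of POX02740 and POX06983 the least certain. Expression was compared between 3 libraries of MuPOX00158, a strain in which the gene POX00158 is deleted, and 3 libraries of Ku70, a mutant of the gene for Ku70, a DNA end-joining protein whose loss favours targeted gene replacement in fungi. Hyphae of both strains were shaken for 24 h at 28 °C in medium with 1% Avicel, a microcrystalline cellulose. The labels do not state whether MuPOX00158 was made in the Ku70 strain. Nor do they say that replicate libraries were grown apart, so the error behind each p-value may be partly or wholly technical. The design text asks how POX00158, described there as a phosphokinase, affects transcripts of cellulase and xylanase genes.

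Cellulose is broken down outside the fungal cell by enzymes with different sites of attack. Endoglucanases cut within a chain and create new ends, cellobiohydrolases move along from the ends and release cellobiose, and beta-glucosidases then split cellobiose into glucose. Fungi that use cellulose induce the genes of these enzymes together on cellulose and keep them low on readily used sugars.

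The libraries held between 2983815 and 3259601 expected counts (reads assigned to genes by a probabilistic model). POX00158 had 4, 8 and 9 reads in MuPOX00158 and 1067, 569 and 763 reads in Ku70, as the strain labels call for. The 10 genes were listed in every library with between 38 and 50566 reads, and none had a fractional count, the mark of reads split between similar genes. Values below are FPKM, reads scaled by gene length and library size, and are given for replicates 1, 2 and 3 in that order.

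Summed over the 10 genes, FPKM was lower in MuPOX00158 than in Ku70 without overlap between the strains. The sums were 6028, 10285 and 8017 FPKM in MuPOX00158, against 33139, 26705 and 36610 FPKM in Ku70. This corresponds to 8109.9 ± 2130 FPKM in MuPOX00158 and 32151 ± 5026 FPKM in Ku70 (SD, n = 3 each), a log2 ratio of the means of -1.99. FPKM summed over all genes was itself higher in MuPOX00158, at 1032477 ± 10535 against 934513 ± 15542 in Ku70, without overlap. The 10 genes made up 0.787 ± 0.214% of all FPKM in MuPOX00158 and 3.44 ± 0.563% in Ku70, a log2 ratio of -2.13. In RNA from whole mycelium, fewer expressing cells and less RNA per cell cannot be told apart.

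Of the 10 genes, 9 fell in MuPOX00158 at an adjusted p below 0.05 (quasi-likelihood test of edgeR), where 18.6% of the 7757 genes tested fell and 18.6% rose. The fold changes of all 10 were negative, so that none rose at an unadjusted p below 0.05 either, nor in DESeq2 or limma. A decrease of more than 2-fold was called for 8 of the 10, against 12.4% of tested genes. In FPKM, 9 of the 10 had no overlap between strains, with every MuPOX00158 library below every Ku70 library, as had 20.6% of tested genes. The median log2 fold change was -1.90 over the 10 genes and 0.00029 over all tested genes. The 10 genes were chosen with earlier results known, so these counts do not test the group against all genes.

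**Figure D1:**
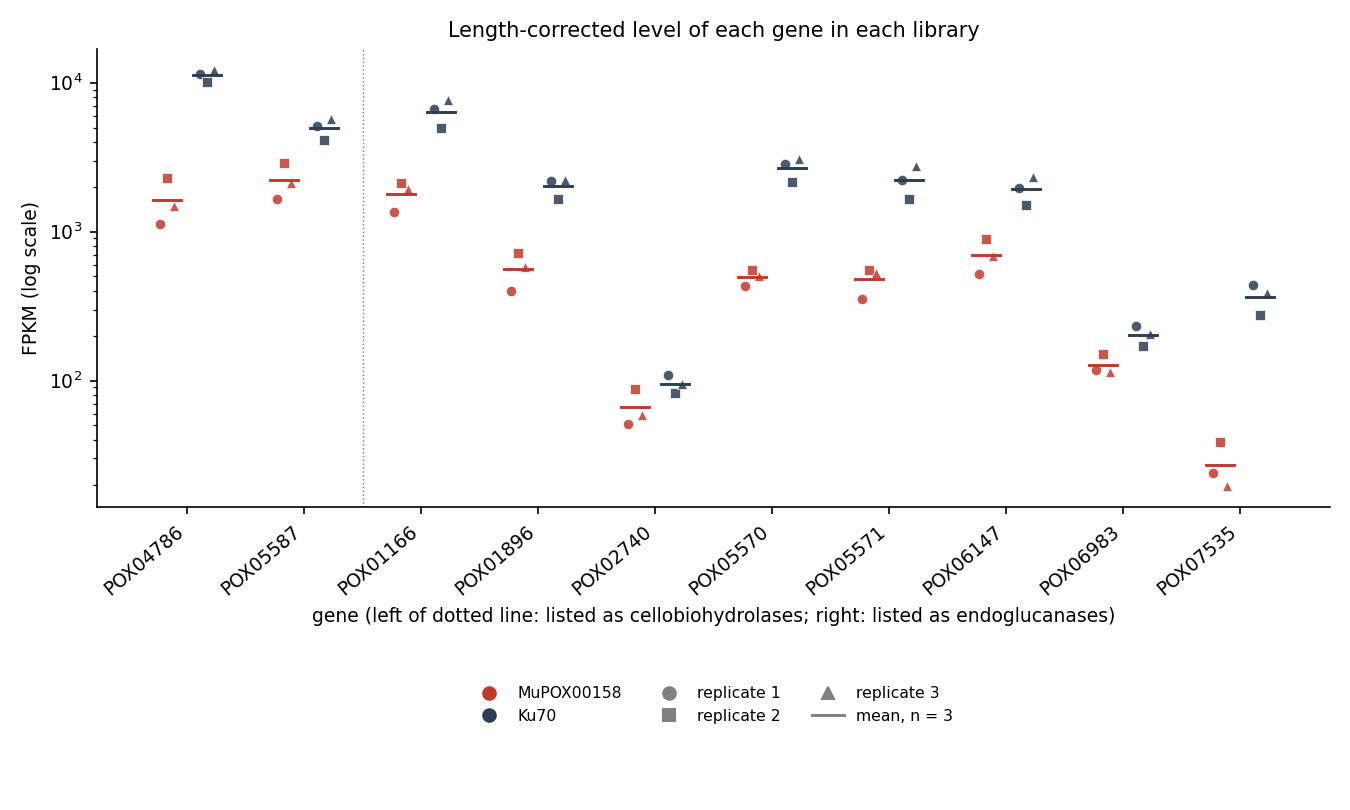
FPKM (log axis) of the 10 genes in each library, with MuPOX00158 to the left of Ku70, symbols for replicates and lines for means of 3 libraries. The strains overlap for POX02740 only, and on this axis the gap is widest for POX07535, with 19.5 to 38.4 FPKM in MuPOX00158 and 274 to 441 FPKM in Ku70.

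The genes listed as cellobiohydrolases both fell, but by different amounts. POX04786 had 1126, 2286 and 1485 FPKM in MuPOX00158, against 11438, 10084 and 12162 FPKM in Ku70. Each Ku70 library lay more than 4-fold above the highest MuPOX00158 library, and the log2 fold change on the TMM scale was -2.85 (SE 0.38; adjusted p = 0.000864, edgeR). POX05587 had 1650.5, 2878 and 2119 FPKM in MuPOX00158, against 5129.9, 4130.4 and 5716 FPKM in Ku70. Its strains lay closer together but did not overlap, with a log2 fold change of -1.24 (SE 0.32; adjusted p = 0.0169, edgeR). This call was lost without MuPOX00158 replicate 1 (adjusted p = 0.0832) and without MuPOX00158 replicate 3 (0.0744).

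The order of these genes was turned round between the strains. Per length, POX04786 stood at 0.682, 0.794 and 0.701 times the FPKM of POX05587 in MuPOX00158, against 2.23, 2.44 and 2.13 times in Ku70. POX05587 was therefore the higher of the pair in all 3 MuPOX00158 libraries and the lower in all 3 Ku70 libraries. The log2 ratio averaged -0.47 ± 0.12 in MuPOX00158 and 1.18 ± 0.10 in Ku70 (SD, n = 3 each), a difference of -1.64 (p = 0.1 in a two-sided exact permutation test, which with 3 libraries a strain cannot go lower).

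Among the genes listed as endoglucanases, POX01166 was the most abundant per length in both strains. It had 1361, 2116 and 1926 FPKM in MuPOX00158, against 6617, 4969 and 7622 FPKM in Ku70. The strains did not overlap, and the log2 fold change was -1.90 (SE 0.30; adjusted p = 0.00212, edgeR). POX01896, with 398, 724 and 575 FPKM in MuPOX00158 and 2174, 1669 and 2229 FPKM in Ku70, had a log2 fold change of -1.91 (SE 0.29). For POX06147 the values were 516, 895 and 685 FPKM in MuPOX00158, against 1954, 1509 and 2332 FPKM in Ku70, a log2 fold change of -1.53 (SE 0.28). Neither gene overlapped between strains, and both fell (edgeR adjusted p = 0.00176 for POX01896 and 0.00390 for POX06147).

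POX05570 and POX05571 have neighbouring identifiers, and both fell. POX05570 had 429, 555 and 504 FPKM in MuPOX00158, against 2827, 2152 and 3094 FPKM in Ku70, and POX05571 had 355, 554 and 531 FPKM in MuPOX00158, against 2218, 1663 and 2768 FPKM in Ku70. Neither gene overlapped between strains, and the log2 fold changes were -2.51 (SE 0.22) and -2.27 (SE 0.28; edgeR adjusted p = 0.000108 and 0.000632). The log2 ratio of POX05570 to POX05571 in FPKM was 0.07 ± 0.18 in MuPOX00158 and 0.29 ± 0.12 in Ku70 (SD, n = 3 each). The strains overlapped in this ratio, whose means differed by -0.23 (two-sided exact permutation p = 0.2, where the smallest possible is 0.1).

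The remaining 3 genes were the least abundant of the 10 per length and stood at the extremes of the change. POX07535 had 23.8, 38.4 and 19.5 FPKM in MuPOX00158, against 441, 274 and 385 FPKM in Ku70. It rested on 46, 80 and 38 reads in MuPOX00158 and 872, 563 and 770 reads in Ku70. With a log2 fold change of -3.80 (SE 0.30; adjusted p = 5.10e-05, edgeR) it fell the most of the 10 genes, and 58 of the 7757 tested genes had a lower fold change.

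POX06983 had 118, 149.97 and 115 FPKM in MuPOX00158, against 232, 172 and 205 FPKM in Ku70. The strains did not overlap, but the gap was small, and the log2 fold change was -0.74 (SE 0.17; adjusted p = 0.0116, edgeR). The call was lost without MuPOX00158 replicate 1 (adjusted p = 0.0595) and without MuPOX00158 replicate 3 (0.0608). POX02740 had 51.2, 88.2 and 58.95 FPKM in MuPOX00158, against 109, 82.1 and 95.6 FPKM in Ku70. Here MuPOX00158 replicate 2 lay above Ku70 replicate 2, and the log2 fold change of -0.60 (SE 0.22) did not pass (edgeR adjusted p = 0.0706). Without MuPOX00158 replicate 2 it was -0.88 and passed (edgeR adjusted p = 0.00983), so that all 10 genes were called lower in that setting.

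The decreases did not follow the order of abundance. POX04786, the most abundant of the 10 in Ku70 per length, and POX07535, among the least abundant, had the largest decreases, whereas POX06983 and POX02740, also of low FPKM, had the smallest. Effective length, the length that the deposited counts and FPKM imply, averaged 641 bases for POX07535 and 683 bases for POX06983, so that genes of similar length stood at opposite ends. The longest by this measure was POX01896, at 1902 bases.

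**Figure D2:**
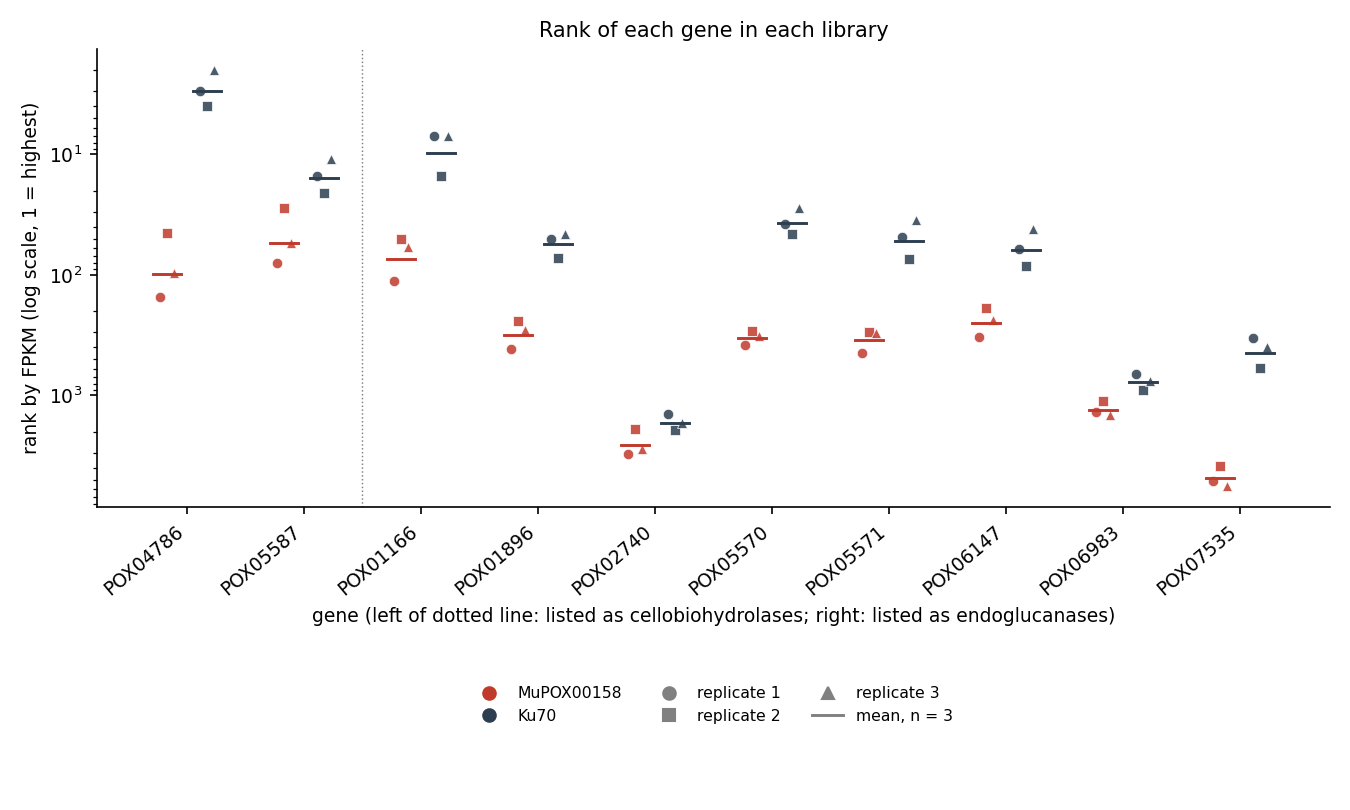
Rank by FPKM (log axis, rank 1 at the top) of the 10 genes among all listed genes of each library, MuPOX00158 left of Ku70, with lines for means of 3 libraries. POX04786 ranked 45 to 152 in MuPOX00158 and 2 to 4 in Ku70, and only POX02740 has ranks that overlap between strains.

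Length correction changed where the genes stood in the transcriptome. POX04786 ranked 152, 45 and 97 by FPKM in MuPOX00158 and 3, 4 and 2 in Ku70, although it ranked 71, 24 and 40 by reads in MuPOX00158 and 1 in every Ku70 library. POX05570, with an effective length of 728 bases, ranked higher by FPKM than by reads. It ranked 380, 295 and 324 by FPKM in MuPOX00158 and 38, 46 and 28 in Ku70, against 542, 391 and 438 by reads in MuPOX00158 and 53, 75 and 46 in Ku70. Within the 100 genes of highest FPKM lay 1, 3 and 3 of the 10 genes in MuPOX00158 and 7, 7 and 7 in Ku70.

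The largest loss of rank was that of POX07535, which ranked 5132, 3821 and 5682 by FPKM in MuPOX00158 and 333, 596 and 398 in Ku70. POX05587 kept the highest ranks in MuPOX00158, at 80, 28 and 54, and ranked 15, 21 and 11 in Ku70. POX02740 ranked 3069, 1888 and 2812 in MuPOX00158 and 1438, 1924 and 1696 in Ku70, so its ranks overlapped between strains.

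The order of the 10 genes by mean FPKM differed between strains. In MuPOX00158 it ran POX05587, POX01166, POX04786, POX06147, POX01896, POX05570, POX05571, POX06983, POX02740 and POX07535. In Ku70 it ran POX04786, POX01166, POX05587, POX05570, POX05571, POX01896, POX06147, POX07535, POX06983 and POX02740. The library ranges of several neighbours in this order overlapped. In MuPOX00158 these were the top 3 genes among themselves and the next 4, from POX06147 to POX05571, each with its neighbour. In Ku70, POX01166 overlapped with POX05587, and the 4 genes from POX05570 to POX06147 each overlapped with the next. POX07535 lay below POX06983 and POX02740 in all 3 MuPOX00158 libraries and above both in all 3 Ku70 libraries, with no overlap in either strain.

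Composition of the family was described as the share of each gene in the summed FPKM of the 10. The share of POX04786 was 18.7, 22.2 and 18.5% in MuPOX00158, against 34.5, 37.8 and 33.2% in Ku70. That of POX05587 was 27.4, 27.98 and 26.4% in MuPOX00158, against 15.5, 15.5 and 15.6% in Ku70, so that it took the leading place in MuPOX00158. Together, the genes listed as cellobiohydrolases held 47.1 ± 2.77% in MuPOX00158 and 50.7 ± 2.28% in Ku70 (SD, n = 3 each), with overlap between strains.

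**Figure D3:**
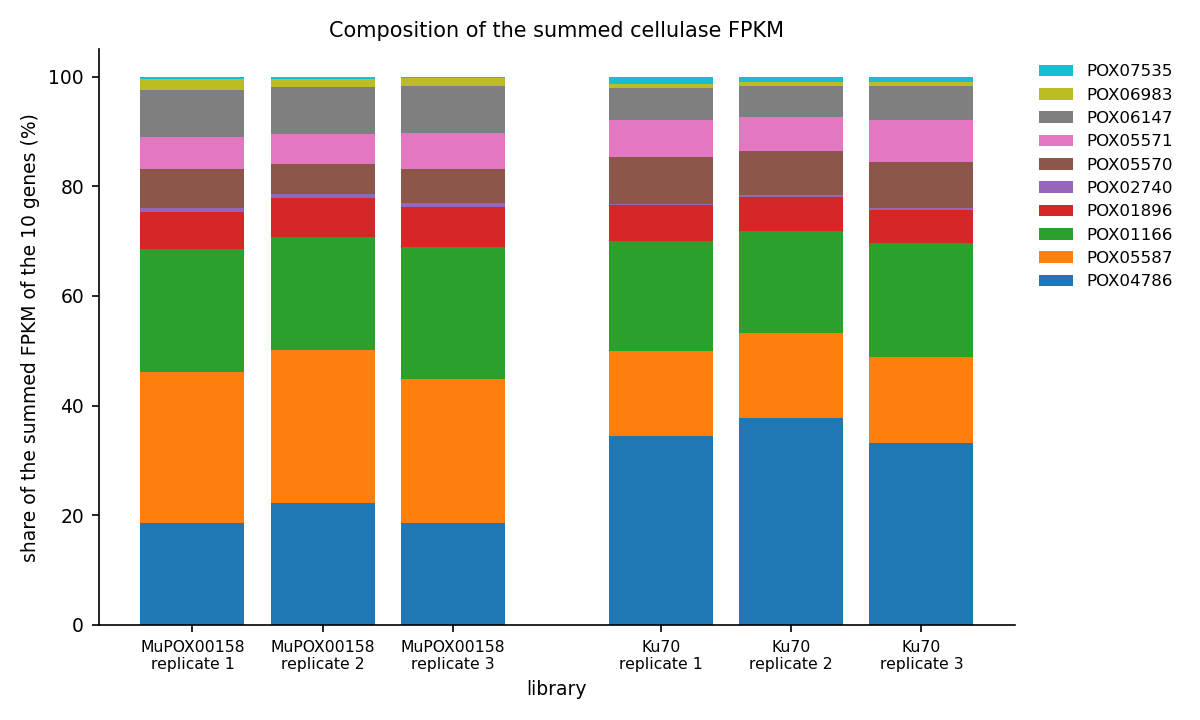
Stacked bars of the share (%) of each gene in the summed FPKM of the 10 genes, 1 bar per library, MuPOX00158 left of Ku70. POX04786 at the bottom takes 18.5 to 22.2% in MuPOX00158 and 33.2 to 37.8% in Ku70, while POX05587 above it takes 26.4 to 27.98% in MuPOX00158 and 15.5 to 15.6% in Ku70.

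Shares of 8 of the 10 genes did not overlap between strains, with 5 larger and 3 smaller in MuPOX00158. Divided by the same family total, 89.7% of tested genes were larger and 1.71% smaller in MuPOX00158 without overlap, so nothing is read from that count. Shares sum to a fixed total, so a smaller share of some genes entails a larger share of others. Larger shares in MuPOX00158 were seen for POX06147, at 8.60 ± 0.0883% in MuPOX00158 and 5.97 ± 0.365% in Ku70, and for POX06983, at 1.62 ± 0.298% in MuPOX00158 and 0.635 ± 0.0710% in Ku70 (SD, n = 3 each). POX02740 likewise held 0.814 ± 0.0683% in MuPOX00158 and 0.299 ± 0.0341% in Ku70. Smaller shares in MuPOX00158 were seen for POX07535, at 0.337 ± 0.0820% in MuPOX00158 and 1.14 ± 0.168% in Ku70, and for POX05570, at 6.26 ± 0.858% in MuPOX00158 and 8.35 ± 0.252% in Ku70. POX01166 and POX05571 overlapped between strains in their shares, while POX01896 did not overlap but differed little, at 6.94 ± 0.302% in MuPOX00158 and 6.30 ± 0.240% in Ku70. The 3 most abundant genes of a library held 69.5 ± 1.16% of the family FPKM in MuPOX00158 and 70.5 ± 1.18% in Ku70, with overlap between strains.

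Whether a gene fell more or less than the family was tested in edgeR with each library scaled to the reads of the 10 genes. This scale sets the fall of the family total to 0, and on it 90.0% of the 7757 genes tested were higher and 1.87% lower in MuPOX00158. POX02740 (log2 change of share 1.41, SE 0.36, adjusted p = 0.000111) and POX06983 (1.31, SE 0.37, adjusted p = 0.000425) were higher in MuPOX00158 relative to the family total. POX07535 was lower on this scale (-1.79, SE 0.37, adjusted p = 2.62e-06), as was POX04786 by a narrow margin (-0.86, SE 0.43, adjusted p = 0.0498). With the replicate block (a term for the letter shared by 1 library of each strain), the call of POX04786 was lost (adjusted p = 0.0698). It was also lost with any 1 library left out other than MuPOX00158 replicate 2 (adjusted p from 0.0638 to 0.122). The other 6 genes did not pass, among them POX05587 (0.78, SE 0.43, adjusted p = 0.0758), which passed when set against the total of the other 9 genes (1.04, adjusted p = 0.0201). Because most tested genes pass on the family scale, the adjustment changed p little. Unadjusted edgeR p-values were 0.0457 for POX04786 and 0.0705 for POX05587 against the total of all 10. The spread in this fit is shared with all genes and is wider than that of the shares within the family.

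**Figure D4:**
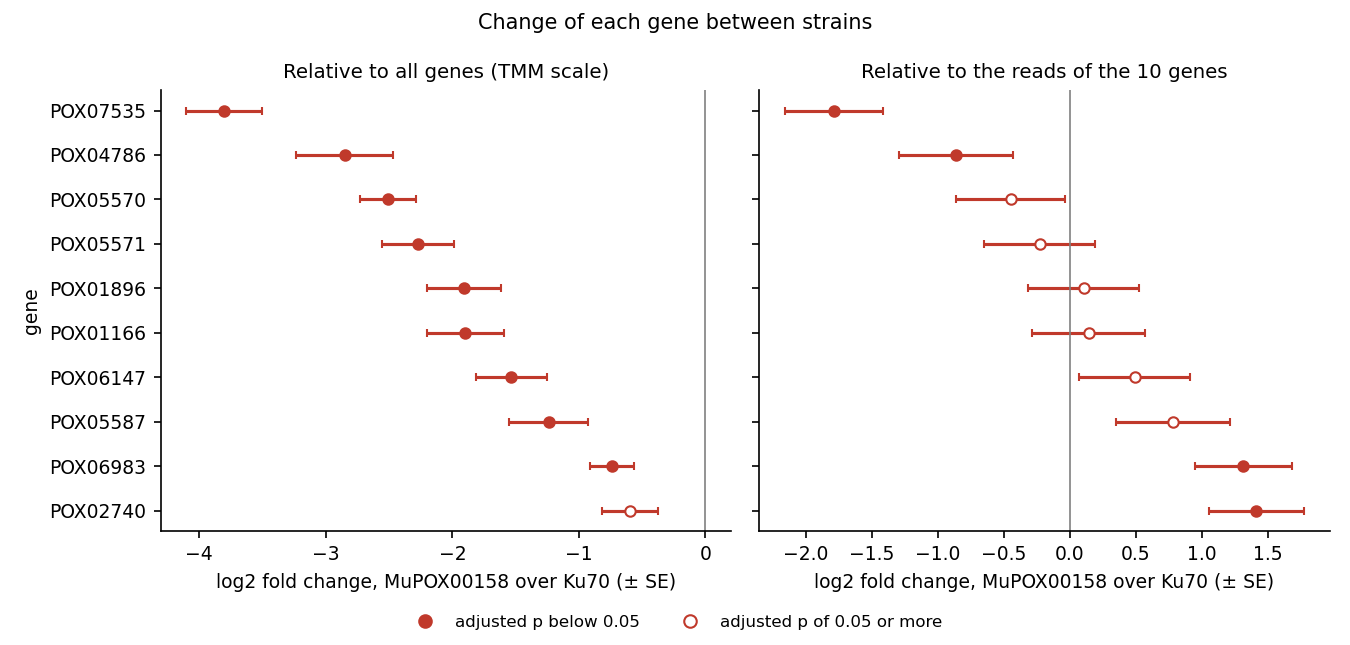
Log2 fold change of each gene, MuPOX00158 over Ku70, with its SE, relative to all genes (left panel) and to the reads of the 10 genes (right panel); filled points have an adjusted p below 0.05. All 10 lie below 0 on the left, from -3.80 to -0.60, and they spread on both sides of 0 on the right, from -1.79 to 1.41.

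Within a strain, the 10 genes moved together from library to library. In MuPOX00158 all 10 were highest in replicate 2 (TMM-scaled log2 CPM), as were 37.4% of tested genes, and 8 had the full order with replicate 1 lowest and replicate 3 between, an order found in 18.1% of tested genes. In Ku70 all 10 were lowest in replicate 2, as were 39.0% of tested genes, and 7 had replicate 3 highest and replicate 1 between, as had 13.8% of tested genes. The median deviation of the 10 genes from the strain mean was -0.37, 0.43 and -0.05 in MuPOX00158, where that of all tested genes was 0.01, 0.00 (-0.0028) and 0.00 (-0.0022). In Ku70 it was 0.04, -0.19 and 0.13, against 0.03, -0.02 and 0.03 for all tested genes. The replicate 2 libraries, which share a letter in their titles, thus went opposite ways in the 2 strains in the level of these genes. Across the 10 genes, the deviations in same-letter libraries of the 2 strains still correlated at 0.77, 0.32 and 0.72 for replicates 1, 2 and 3. Pairs with different letters ran from -0.83 to 0.23. Deviations from a strain mean cancel over its libraries, so these correlations are linked. What the letter marks is not stated. With 3 libraries per strain, no gene-to-gene correlation over libraries was computed.

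The spread between libraries exceeded the median of all tested genes in MuPOX00158, but not in Ku70. The median SD of log2 CPM was 0.41 over the 10 genes in MuPOX00158 and 0.18 in Ku70. Over all tested genes it was 0.19 in MuPOX00158 and 0.27 in Ku70, with an upper decile of 0.48 in MuPOX00158 and 0.66 in Ku70. Genes of similar abundance were not compared separately. POX04786 differed by 2.03-fold between its highest and lowest FPKM in MuPOX00158 and by 1.21-fold in Ku70. Dividing by the family total narrowed the spread in 8 of 10 genes in MuPOX00158 and in 10 of 10 in Ku70. Each gene is part of that total, so some narrowing is built in. FPKM is also not TMM-scaled, so a share drops any shift common to a whole library. The same count was not made over all tested genes, so nothing is read from it. The median SD of log2 FPKM was 0.40 in MuPOX00158 and 0.26 in Ku70, and that of the log2 share was 0.14 in MuPOX00158 and 0.09 in Ku70. The narrowest shares were those of POX06147 in MuPOX00158, at 8.54 to 8.70%, and of POX05587 in Ku70, at 15.5 to 15.6%. POX05570 and POX06983 in MuPOX00158 were the exceptions, with a wider SD of the log2 share than of log2 FPKM.

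**Figure D5:**
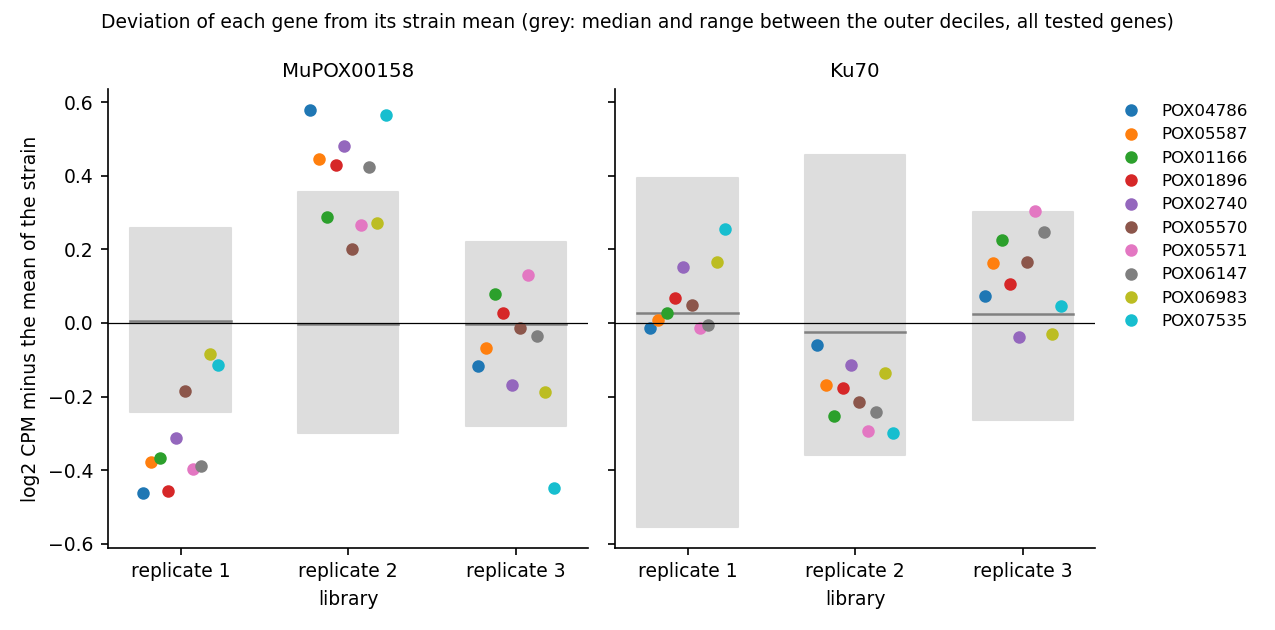
Deviation of each gene from the mean of its strain (log2 CPM) in each library, MuPOX00158 left and Ku70 right, over the range between the outer deciles (grey band) and the median (grey line) of all tested genes. All 10 points lie above 0 in MuPOX00158 replicate 2, from 0.20 to 0.58, and below 0 in Ku70 replicate 2, from -0.30 to -0.06.

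The tested genes outside the family with the most similar profile over the 6 libraries were POX02721 and POX04472, which the files do not annotate. Likeness was the root mean square distance of centred log2 CPM to the mean profile of the 10 genes, computed for 6692 genes with at least 10 CPM in Ku70. It was 0.113 for POX02721 and 0.114 for POX04472, against a median of 1.03 over these genes. The mean profile ran from -1.29 to -0.58 in MuPOX00158 and from 0.78 to 1.10 in Ku70. Any gene unchanged between strains therefore lies far from it, and a small distance largely reflects a fall of similar size. POX02721 had 390 ± 113 FPKM in MuPOX00158 and 1493 ± 214 FPKM in Ku70, and POX04472 had 23.5 ± 5.75 FPKM in MuPOX00158 and 76.3 ± 9.13 FPKM in Ku70 (SD, n = 3 each). Among the 10 genes themselves, POX01896 (0.0749) and POX01166 (0.0984) lay nearest to the mean profile, and POX07535 (0.947) lay farthest from it. Of the 10, 8 lay farther from it than POX04472.

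Other genes of cellulose and xylan breakdown were counted from lists of recalled identifiers, also chosen with earlier results of these data known. Of 7 beta-glucosidase genes, 4 fell and 1 rose, where 18.6% of tested genes fell and 18.6% rose, and the median log2 fold change was -0.65. Of 8 xylanase genes, 7 were tested and all 7 fell, by a median log2 fold change of -2.60 and against the same 18.6% of tested genes. By distance to the mean profile of the 10 cellulase genes, the xylanase genes POX04274, POX08484 and POX05916 stood at places 38, 44 and 111 of the 6692 genes, and the nearest beta-glucosidase gene, POX06835, at place 430. These 4 were named after their places were seen. The other tested xylanase genes stood at places from 711 to 2580, and the other beta-glucosidase genes from 520 to 6529. No gene of either list was among the 20 nearest. Such places reflect the size of the fall between strains as well as movement between replicates.

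Genes with adjacent identifiers did not all follow the 10 genes. Of 15 tested genes whose identifier differs by 1 from that of a member, 5 fell (33.3%) and 2 rose (median log2 fold change -0.53). Of 29 within a distance of 2, 8 fell (27.6%) and 3 rose. Among all tested genes 18.6% fell and 18.6% rose. A decrease of more than 2-fold was called for 7 of the 29, against 12.4% of tested genes. Neighbouring numbers were not checked against genome positions. Taken member by member within a distance of 2, the median log2 fold change of the tested neighbours ran from -1.34 to 0.49. The lowest was that of the 4 beside POX06147, of which 2 fell. The highest was that of the 3 beside POX01166, of which 1 rose. For the 3 beside POX04786 it was -0.01.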

How the data were processed

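Per the file headers, each library's table holds an expected count and an FPKM value for every listed gene, as deposited by the authors. The submitters' processing notes name, with no roles, BWA 0.7.10-r789, Bowtie2 2.1.0, RSEM 1.2.12 and DESeq2; build, annotation and strandedness are not stated there. A gene missing from a table was set to 0. Counts were rounded and compared with edgeR 4.0.16 (R 4.3.3, filterByExpr with a minimum count of 10, TMM, quasi-likelihood test, Benjamini-Hochberg over 7757 genes, threshold 0.05). Only the edgeR fitting was tested on simulated data. SE is the size of the log2 fold change over the square root of F. A further fit replaced library sizes by the reads of the 10 genes. Effective length is count over FPKM and library total. Log2 CPM used a prior count of 2. Alternatives used limma 3.58.1 and DESeq2 1.42.0. Replicates are numbered in order of deposition. Titles share a letter between strains, and deviations from strain means correlated at 0.150, 0.219 and 0.159 across tested genes in the 3 same-letter pairs. Pairs with different letters ran from -0.177 to 0.034. The letter served as a block in an alternative. Depth was 2983815 to 3259601 counts per library. No identifier matched the RefSeq table (9964 genes), so positions and sequences were not used here. Named genes were the 10 members, POX00158 and the 2 nearest profiles, with 4 genes of the side lists added after their values were seen. Members and lists were chosen with earlier results of these data known.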

Additional observations from a re-analysis of the deposited data

How the results depend on the processing

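The count of 9 lower genes ranged from 7 to 10 when 1 library was left out (7 without MuPOX00158 replicate 1 or 3) and from 7 to 9 under the other settings, with 7 at an adjusted p below 0.01 and 9 with the replicate block, DESeq2, limma on log2(FPKM + 1) or log2(FPKM + 0.1), plain or upper-quartile scaling, no filter and a stricter filter. Of 150 comparisons of single fold changes with an alternative, 145 stayed on the same side of the threshold. A call was lost in 4 and gained in 1, each with a MuPOX00158 library left out, and no direction changed. On the scale of the family reads, 90.0% of tested genes were higher and 1.87% lower in MuPOX00158, so nothing is read from a count of members there. The number of genes with a changed share was 4, 3 to 4 with 1 library left out and 3 to 5 under the other settings. POX04786 lost that call in 7 of its 10 alternatives (adjusted p 0.0638 to 0.122), the replicate block among them, and kept it with no filter, against the other 9 genes and without MuPOX00158 replicate 2; the cause was not tested. No other call changed with the block. The log2 ratio of summed FPKM, -1.99, ranged from -2.19 to -1.81 with 1 library left out, and was -2.02 in TMM-scaled CPM and -1.69 without POX04786. The difference in the log2 ratio of POX04786 to POX05587 was between -1.71 and -1.59 with 1 library left out, and that of POX05570 to POX05571 between -0.33 and -0.16. Exchanging labels only within the replicate block allows no p below 0.25. FPKM and TMM scales differ slightly: POX02740 overlapped between strains in FPKM and not in TMM-scaled CPM, where 24.2% of tested genes had no overlap with MuPOX00158 lower. The lowest counts of the 10 genes were those of POX07535 in MuPOX00158, 38 to 80 reads.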
